A study of Mus musculus with 9 samples.

Results

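The Fos and Jun family genes Fos, Fosb, Fosl1, Fosl2, Jun, Junb and Jund, with the stress-responsive factor gene Atf3 and the early response genes Ier2 and Ier3, were followed in primary cultures of mouse brown fat. These 10 genes were taken by name from the 19858 genes with a probe set of their own on the array, and all 10 lay above the intensity filter that left 13335 genes for testing. Each had 1 single-gene probe set.

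The cultures came from the interscapular brown fat of male C57BL/6 mice aged 5 weeks, were enriched for precursor cells, grown with insulin at rising concentrations and harvested at around day 9. There were 3 groups of 3 cultures, and each culture had a subject number of its own: LPA, given as 5 µM of the 1-oleoyl form (subjects 7 to 9), the autotaxin inhibitor HA155 at 2.5 µM (subjects 4 to 6) and DMSO vehicle as control (subjects 1 to 3). Autotaxin is the secreted enzyme that makes LPA (lysophosphatidic acid), so the series asks which genes follow the lipid and which follow a block of its synthesis. The design text places treatment within differentiation and the sample labels place it at 9 days in vitro, so how long before harvest the compounds were added is unknown.

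AP-1 is a dimer of a Fos protein with a Jun protein, or of Jun proteins, that binds DNA through paired basic leucine zippers. Many of its genes are immediate-early genes, whose transcription starts within minutes of a stimulus without new protein synthesis and usually fades soon after. In rodents and humans LPA acts on receptors coupled to G proteins, and its signals through ERK kinases are textbook inducers of Fos. In fat cell precursors AP-1 factors are known mainly from early, mitogen-driven stages of adipogenesis.

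Promoter sequences of 3 genes, Fos, Jun and Atf3, are shown for their known control elements and were chosen with their values known. Whether the marked elements bear on the levels in these cultures was not tested. Each runs from 250 bases before to 50 bases after the annotated start (RefSeq, build GRCm38.p6, which may not be the build behind the array), on the strand of the gene. Capitals mark matches, on either strand, to TGACGT (the core of the cAMP response element, bound by CREB and ATF proteins), TGACATCA (the AP-1-like octamer known from the Jun promoter), TATAAA or CCAAT. TGACGTCA (the whole cAMP response element, which contains that core), TGACTCA (the consensus AP-1 site) and the CArG box (the core of the serum response element) were searched too.
Fos, chr12:85473640-85473939, plus strand: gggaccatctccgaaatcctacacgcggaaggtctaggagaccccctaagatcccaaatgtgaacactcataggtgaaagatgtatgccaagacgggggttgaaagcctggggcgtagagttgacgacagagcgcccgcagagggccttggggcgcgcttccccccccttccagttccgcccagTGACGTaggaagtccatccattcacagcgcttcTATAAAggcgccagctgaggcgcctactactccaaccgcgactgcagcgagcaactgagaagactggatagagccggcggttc
Jun, chr4:95052173-95052472, minus strand: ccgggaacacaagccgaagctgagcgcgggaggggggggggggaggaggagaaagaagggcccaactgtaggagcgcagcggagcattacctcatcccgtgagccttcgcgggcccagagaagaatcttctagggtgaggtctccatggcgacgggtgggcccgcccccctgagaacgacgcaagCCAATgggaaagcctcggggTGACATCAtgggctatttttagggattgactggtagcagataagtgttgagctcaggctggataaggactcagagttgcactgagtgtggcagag
Atf3, chr1:191183284-191183583, minus strand: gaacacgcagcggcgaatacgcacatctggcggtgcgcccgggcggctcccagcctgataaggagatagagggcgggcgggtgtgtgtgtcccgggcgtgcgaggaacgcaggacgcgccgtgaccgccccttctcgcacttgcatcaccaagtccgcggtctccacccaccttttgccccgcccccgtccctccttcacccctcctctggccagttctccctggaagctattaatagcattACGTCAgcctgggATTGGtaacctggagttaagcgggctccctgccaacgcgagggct

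The Fos window held TGACGT at positions -66 to -61 from the start, and TATAAA at -33 to -28. In the Atf3 window the same core lay on the opposite strand, read here as ACGTCA, at -8 to -3. The Jun window held TGACATCA at -45 to -38. Of 32851 promoter windows of this length, 7.51% held TGACGT, 3.62% TGACATCA, 13.6% TATAAA and 37.4% CCAAT. None of the 8 members with a window in the sequence table held TGACGTCA (1.79% of all windows), TGACTCA (5.2%) or the CArG box (1.63%). The serum response element of Fos is known to lie farther upstream than this window. Fosl1 and Ier2 had no entry.

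Among the Fos family, Fos and Fosl2 rose with LPA, and Fosb and Fosl1 did not pass the test. Fos encodes the founding partner of Jun in AP-1. Its intensity was 147, 195 and 155 in the LPA cultures, 73.3, 79.3 and 77.1 in the HA155 cultures, and 66.0, 64.5 and 82.0 in the controls. Every LPA array lay above every other array, while the HA155 and control values overlapped. On the log2 scale the change for LPA against control was 1.22 (SE 0.12, limma adjusted p = 2.37e-05), a 2.34-fold rise with a 95% interval of 1.96 to 2.79 and the 15th largest rise among the 13335 genes tested. Its mean in control, 6.14 on the log2 scale, was near the filter level of 5.59, where RMA compresses changes. These are bulk cultures, in which more cells of a kind and more RNA per cell cannot be told apart.

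Fosl2, a Fos-related factor that can partner Jun and is known for slower and longer expression than Fos, had intensities of 425, 574 and 431 with LPA, 296, 303 and 335 with HA155, and 346, 343 and 363 in control. No groups overlapped, and LPA array 8 stood well above the other LPA arrays. The log2 change with LPA was 0.43 (SE 0.11, limma adjusted p = 0.0122), and it was 0.29, still past the threshold, without that array. Fosb, whose protein also has a short form that lacks the activating end, measured 65.8, 72.2 and 57.6 with LPA, 52.9, 66.2 and 65.4 with HA155, and 50.1, 66.9 and 64.0 in control. The groups overlapped, and the log2 change with LPA was 0.12 (95% interval -0.16 to 0.40).

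Fosl1, the gene of Fra-1, had one shared value of 69.8 in 6 of 9 arrays, so its spread is understated. The other values were 79.3 in LPA array 8, 71.8 in HA155 array 4 and 63.7 in control array 1. Its log2 change with LPA was 0.11 (limma adjusted p = 0.31). Fosb and Fosl1 averaged 5.95 and 6.14 on the log2 scale over the 9 arrays, also close to the filter level.

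**Figure D1:**
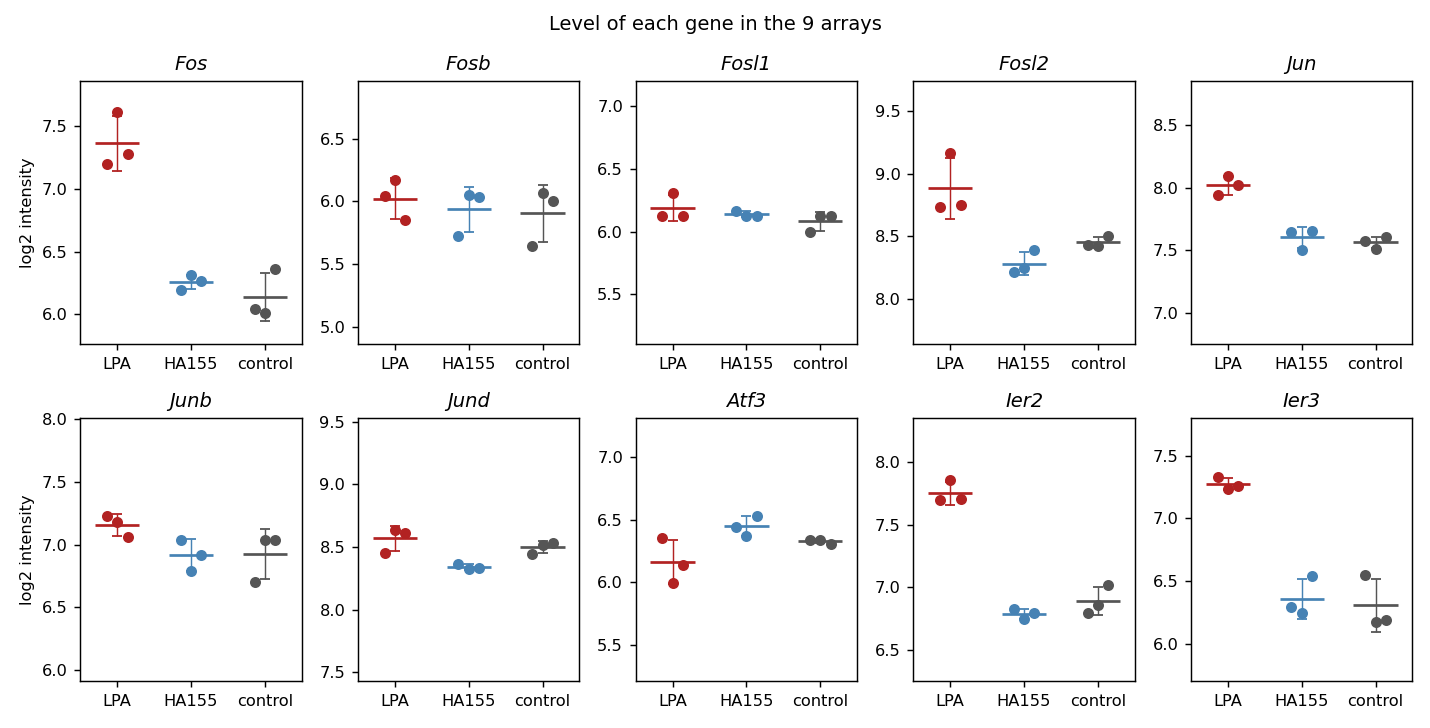
Log2 intensity of the 10 genes in the 9 arrays (points), with the group mean (wide bar) and SD (thin bars, n = 3 per group); each panel spans the same range on its own axis. Fos, Ier2, Ier3, Jun and Fosl2 show all LPA points above all HA155 and control points, whereas Fosb and Fosl1 overlap between groups.

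Of the Jun family, Jun rose with LPA. Jun encodes the main dimer partner of the Fos proteins. Intensities were 246, 274 and 260 with LPA, 201, 182 and 202 with HA155, and 190, 183 and 195 in control. All LPA arrays again exceeded the rest, and HA155 and control overlapped. The log2 change with LPA was 0.46 (SE 0.07, limma adjusted p = 0.000453), which is 1.37-fold (95% interval 1.24 to 1.52).

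Junb, a Jun relative often described as a weaker activator, measured 150, 145 and 133 with LPA, 132, 111 and 121 with HA155, and 104, 132 and 132 in control. The LPA arrays were the highest, but the lowest of them differed little from the highest control. The log2 change was 0.23 (SE 0.10), which missed the threshold (limma adjusted p = 0.13). Control arrays 2 and 3 and HA155 array 4 held an identical value, so the spread may be understated for Junb as well. The control SD of Junb was still 0.20 on the log2 scale, where the median over all genes tested was 0.074 in control. Jund, which is expressed in most resting cells and responds little to serum, had 351, 398 and 392 with LPA, 329, 321 and 322 with HA155, and 349, 366 and 371 in control. LPA and control overlapped for Jund, and the log2 change with LPA was 0.07 (95% interval -0.07 to 0.21).

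Atf3, a stress-induced factor of the ATF family that pairs with Jun proteins, was the only one of the 10 with a negative estimate for LPA against control. It measured 81.6, 63.8 and 70.5 with LPA, 87.0, 83.0 and 92.5 with HA155, and 80.8, 80.8 and 79.3 in control. The controls lay close together, and LPA array 7 lay above all of them. The log2 change with LPA was -0.16 (SE 0.08), which did not pass (limma adjusted p = 0.20), although without LPA array 7 it was -0.26 and passed (adjusted p = 0.0272).

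Both Ier genes rose with LPA. Ier2, which encodes a small nuclear protein induced early by growth factors, measured 207, 232 and 208 with LPA, 114, 107 and 111 with HA155, and 111, 116 and 129 in control. The 3 LPA values lay far above an overlapping set of HA155 and control values. This was 1.81-fold (95% interval 1.62 to 2.03) for LPA against control (limma adjusted p = 1.17e-05). Ier3, an early response gene linked to cell survival and ERK signalling, measured 161, 150.5 and 153 with LPA, 78.2, 75.6 and 92.8 with HA155, and 93.5, 72.3 and 73.1 in control. LPA arrays were tightly grouped, and 1 array in each of the other groups was higher than its group. The log2 change with LPA was 0.97 (SE 0.11, limma adjusted p = 6.81e-05), a 1.96-fold rise (95% interval 1.66 to 2.30).

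For LPA against control 5 of the 10 genes rose and none fell, where 23% of the genes tested passed, 12.2% rising and 10.8% falling. At an unadjusted p below 0.05 there were 6 of 10, against 34.3% of all genes. LPA arrays lay above all controls in 6 of 10 genes, the 5 that rose and Junb, as they did in 17.5% of all genes. The median log2 difference was 0.33 over the 10 genes and 0.01 over all genes tested.

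HA155 moved none of the 10 genes past the threshold (0 of 10 by limma, where 1.03% of the genes tested passed, 0.607% rising and 0.427% falling). At an unadjusted p below 0.05 there was 1, Jund, where 8.11% of all genes had such a p. For Jund the log2 difference was -0.16 (SE 0.06, adjusted p = 0.51), with all 3 HA155 arrays below all controls. Fosl2 also lay lower in every HA155 array (-0.17, adjusted p = 0.83), and Atf3 lay higher in every one (0.12, adjusted p = 0.86). Non-overlap of this kind held for 7.9% of all genes in the lower direction and 8.87% in the higher. The intervals, whose spread is pooled over all 3 groups and so includes that of the LPA arrays, bound what could have been missed. For Fos the log2 difference of HA155 from control was 0.12 (95% interval -0.13 to 0.37), for Ier2 -0.10 (-0.26 to 0.06) and for Ier3 0.05 (-0.18 to 0.28). For Jun it was 0.04 (-0.11 to 0.18).

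Set directly against HA155, the LPA cultures had 6 of the 10 genes higher and 1 lower, where 26.1% of the genes tested passed, 13.7% rising and 12.4% falling. At an unadjusted p below 0.05 there were 8 of 10, against 35.6% of all genes. LPA arrays lay above all HA155 arrays in 7 of the 10 and below them in 1, as in 20.5% and 18.2% of all genes. The comparison shares the LPA arrays with the first comparison and the HA155 arrays with the second, so it is not independent of either. The log2 differences were 1.10 for Fos (limma adjusted p = 3.62e-05), 0.96 for Ier2 (3.31e-06), 0.92 for Ier3 (7.70e-05) and 0.42 for Jun (0.000699). Fosl2 differed by 0.60 (SE 0.11, adjusted p = 0.0014), with control between LPA and HA155.

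Jund and Atf3 passed in this comparison alone of the 3. Jund was higher with LPA than with HA155 by 0.23 (SE 0.06, limma adjusted p = 0.0202), and Atf3 fell by 0.29 (SE 0.08, adjusted p = 0.0277). In both, the control mean lay between the means of the treated groups. Neither call was firm. Jund lost it without HA155 array 4, 5 or 6 or LPA array 9 (adjusted p up to 0.0704). Atf3 lost it without HA155 array 4 or 6 or LPA array 8 or 9 (adjusted p up to 0.117). Junb differed by 0.24 and missed the threshold (adjusted p = 0.11), but passed without control array 1 (adjusted p = 0.0441).

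**Figure D2:**
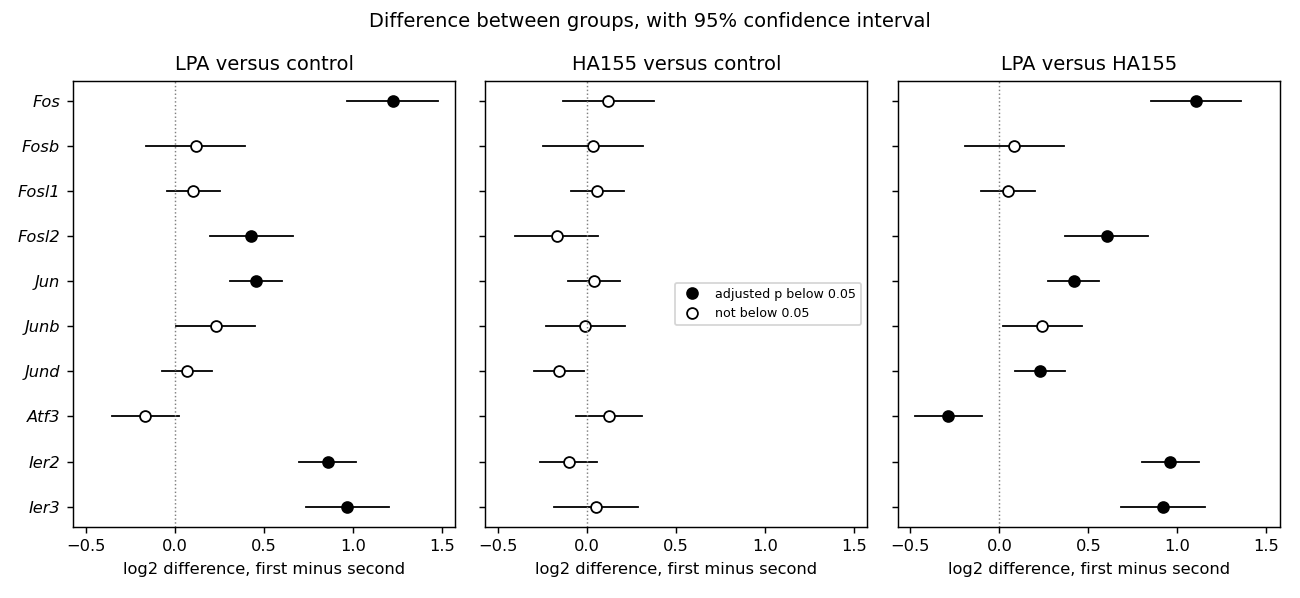
Log2 difference between groups for the 10 genes (points) with 95% confidence intervals from limma (lines), the first-named group minus the second. Filled points passed an adjusted p of 0.05: 5 genes for LPA versus control, 0 for HA155 versus control and 7 for LPA versus HA155, of which Atf3 alone lies below 0.

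Within the LPA group the arrays were not alike. Array 8 was the highest LPA array for 7 of the 10 genes, where 32.5% of all genes tested peaked there. It correlated least with the arrays of the other groups (mean r = 0.984 over all probe sets, against 0.987 to 0.990 for the other arrays). Without it the same number of genes, 5 of 10, rose with LPA against control. Over all genes tested the median SD per gene was 0.107 with LPA, 0.054 with HA155 and 0.074 in control, on the log2 scale.

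Other immediate-early and early response genes that passed with LPA more often rose than fell. Of 53 tested, 24 rose and 4 fell, with a median log2 change of 0.15, where 12.2% of all genes rose and 10.8% fell. Falls were thus no more frequent in this list than over all genes. The 4 of smallest p were the matrix-associated signalling gene Ccn1 (1.88), the nuclear receptor gene Nr4a1 (1.50), the mRNA-decay factor gene Zfp36 (0.82) and Errfi1 (0.70), which encodes an inhibitor of EGF receptors. All 4 kept their call in each of the 18 alternative fits, but they were picked by their small p in this comparison. The 4 that fell, named after their values were seen, were the phosphatase genes Dusp4 (-0.79) and Dusp6 (-0.22), Rhob (-0.38) and Btg1 (-0.22). Only 2 fell without control array 1 or 2. With HA155 none of the 53 passed in limma. The lowest p was that of Ccn2 (0.49, adjusted p = 0.0822), a matrix-associated relative of Ccn1. Next came Id2 (0.24), Id3 (0.27) and Plk2 (0.27, adjusted p up to 0.41), and 1 gene rose without control array 3 or LPA array 8 and 3 with array weights.

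Genes known as targets of AP-1 were mostly higher with LPA. Of 38 tested, 24 rose and 2 fell (median log2 change 0.31), where 12.2% of all genes rose and 10.8% fell. Mmp3, a matrix-degrading protease with a classic AP-1 site, rose by 1.20 (SE 0.07, limma adjusted p = 1.29e-06). Tnc, a matrix glycoprotein gene, rose by 0.95, the metallothionein gene Mt2 by 0.80 and the protease inhibitor gene Timp1 by 0.79. Those that fell, named after their values were seen, were the HGF receptor gene Met (-0.59) and Vegfa (-0.18). The count that fell was 1 without control array 1, 2 or 3, HA155 array 5 or LPA array 9. These genes have many regulators besides AP-1, and Mmp13, Mmp12, Mmp1a, Il6, Il11, Lif and Csf2 lay below the intensity filter. With HA155, Mt2 alone of the 38 rose, by 0.29 (limma adjusted p = 0.045). It lost that call in 10 of 18 alternative fits, including those without any 1 control array, HA155 array or LPA array 7 or 9 (adjusted p up to 0.246). Those of next smallest p were the plasminogen activator genes Plau (-0.25, adjusted p = 0.0532) and Plat (-0.27), and Ezr (0.21). None of the 38 fell with HA155, but 1 did without LPA array 8 and 2 with array weights.

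Of 34 other basic leucine zipper genes tested, 7 rose with LPA and 2 fell, with a median of 0.03, where 12.2% of all genes rose and 10.8% fell. The number that rose was 3 with no intensity filter or in the fit of only the 6 arrays compared, and 2 with array weights. Cebpd, an early factor of adipogenesis, rose by 0.79 (limma adjusted p = 0.000644), and Cebpa, which holds the mature fat cell state, fell by 0.58 (adjusted p = 0.000617). The other gene that fell, Tef (-0.18), was named after its value was seen. Creb3l1 rose by 0.64 (adjusted p = 0.011) and Jdp2, a repressive partner of Jun, by 0.25 (adjusted p = 0.0222). Jdp2 lost its call without control array 2 or 3 or LPA array 8. The number that rose was 2 to 4 without any 1 of the control or HA155 arrays or LPA array 8 or 9, and the number that fell was 1 without control array 1 or 2, any HA155 array or LPA array 8 or 9. With HA155 none of the 34 passed in limma; the smallest p values were those of Jdp2 (-0.19, adjusted p = 0.41), Atf5, Maff and Ddit3 (each -0.15).

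Upstream of Fos, serum response factor and its ternary complex partners read the ERK signal. Elk3, a partner that can repress Fos, rose with LPA by 0.51 (SE 0.09, limma adjusted p = 0.0012). The other genes tested did not pass: Mrtfa measured 0.18, Srf 0.16, Mrtfb 0.12, Elk4 0.04 and Elk1 -0.15 (adjusted p = 0.0862 or more). The count of 1 of 6 that rose is near the share of all genes that rose, 12.2%. It became 2 without LPA array 7 or 8. With HA155 none of the 6 passed in limma, and Elk4 had the smallest p (-0.12, adjusted p = 0.86). Of 21 MAP kinase cascade genes tested of 30 listed, 1 rose and 3 fell with LPA (median -0.11), where 12.2% of all genes rose and 10.8% fell, so the count that fell is near that of all genes. Those that fell were Rps6ka3 (-0.56), a kinase gene downstream of ERK, and the stress-cascade kinase genes Map3k1 (-0.50) and Map3k5 (-0.50). Nras (0.21) rose, but not without control array 2 or 3, and 2 genes rose without LPA array 8. The number that fell was 6 without LPA array 9. With HA155 none of the 21 passed in limma, and the smallest p values were those of Mapk9 (0.11), Mapk12 (-0.13), Rps6ka5 (0.11) and Mapk14 (-0.080).

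Stress and heat-shock genes were measured because AP-1 also answers to cell stress. Of 16, 2 rose with LPA, a share near the 12.2% of all genes, the chaperone partner gene Bag3 (0.33) and Trib3 (0.30), and 1 fell, the mitochondrial chaperone gene Hspd1 (-0.33). Their median was -0.03, and Dnajb4 (0.26, adjusted p = 0.0515) just missed the threshold. Bag3 lost its call without control array 2 and Trib3 without control array 1. The number that rose was 1 without control array 2 and 3 without LPA array 7 or 8, and 2 fell without LPA array 9. With HA155 none of the 16 passed in limma, and 1 rose without LPA array 8. The smallest p values were those of Hspb8 (0.22, adjusted p = 0.30), Hspa1a (-0.23), Hspa8 (0.084) and Dnajb4 (0.11).

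**Figure D3:**
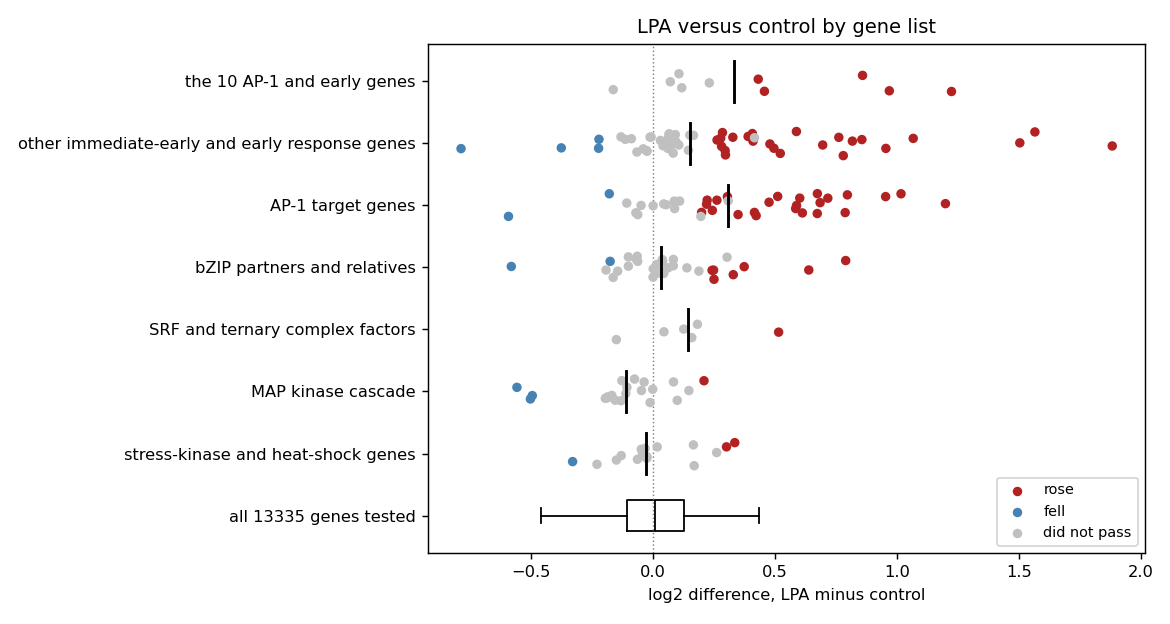
Log2 difference, LPA minus control, for the 10 genes and for 6 gene lists (points, coloured by whether the gene rose, fell or did not pass; vertical bars are list medians). The box at the bottom gives the quartiles of all 13335 genes tested, with whiskers at their 5th and 95th percentiles; medians were 0.33 for the 10 genes, 0.15 for the other early genes and 0.31 for the AP-1 targets.

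Markers of the cells in the dish moved with the same comparison, LPA against control, in which 12.2% of all genes tested rose and 10.8% fell. All 11 adipocyte markers tested fell with LPA (median log2 change -1.35). Their summed intensity ran from 13571 to 14583 in the LPA arrays, from 33123 to 34973 with HA155 and from 30233 to 31409 in control. Sums here and below take in every listed marker on the array, also those below the intensity filter that the counts leave out. Of 9 preadipocyte and fibroblast markers 6 rose and 1 fell, with sums of 41785 to 44078 with LPA, 30771 to 32968 with HA155 and 33927 to 35551 in control. Of 12 skeletal muscle markers 7 rose, with sums of 2117 to 2479 with LPA, 1572 to 1726 with HA155 and 1567 to 1662 in control. The muscle-defining genes Myod1 (-0.03), Myog (0.02) and Pax7 (-0.03) did not pass, nor did Ckm (0.05) and Tnni2 (0.15). Myf5 lay below the intensity filter. Of 5 smooth muscle and pericyte markers 2 rose, with sums of 3260 to 3505 with LPA, 2759 to 3270 with HA155 and 2246 to 2547 in control.

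None of 4 macrophage markers passed with LPA or with HA155, though 1 rose with HA155 in at least 1 alternative fit. Sums over the 8 on the array were 567 to 872 with LPA, 773 to 914 with HA155 and 586 to 689 in control. Every HA155 sum thus lay above every control sum, but the tested markers did not move alike. The log2 difference of HA155 from control was 0.72 for Lyz2 (limma adjusted p = 0.33) and 0.22 for Cd68. It was 0.07 for Csf1r and -0.15 for Cd14. Adgre1, Itgam, Fcgr1 and Mrc1 lay below the intensity filter. Of 5 endothelial markers 1 rose with LPA, Tek. Sums over the 8 on the array were 555 to 586 with LPA, 495 to 529 with HA155 and 516 to 548 in control. The defining endothelial genes Pecam1 and Kdr lay below the filter. No marker of Schwann cells (4 tested), mesothelium (2) or other blood cells (1) passed for LPA or for HA155 against control. Set directly against HA155, the Schwann cell marker Ngfr was higher with LPA (0.30, limma adjusted p = 0.0357). Brown fat markers were few: Ucp1, Cidea, Dio2 and Elovl3 lay below the filter over the 9 arrays. Of the other 6, Cox7a1, Cox8b and Ppargc1a fell with LPA and Zic1 rose, while Cox7a1 and Cox8b rose with HA155, by 1.13 and 1.01 on the log2 scale. With HA155, 3 adipocyte markers and 1 muscle marker also rose and 1 preadipocyte marker fell, where 0.607% of all genes rose and 0.427% fell. The part of these shifts in the values of the AP-1 and early genes was not tested.

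Genes whose course over the 9 arrays was nearest to each member were found by the root mean square difference of log2 values, each gene centred on its own mean. For Fos these were the fatty acid transporter gene Slc27a6 (0.108), Tenm3 (0.140) and Dact1 (0.141), against a root mean square of 0.568 for Fos itself. For Ier3 they were Lrrn4cl (0.090), the pyruvate dehydrogenase phosphatase gene Pdp1 (0.12) and Layn (0.126), and for Ier2 they were Lgi2 (0.082), the oxysterol hydroxylase gene Cyp7b1 (0.097) and the matrix gene Fbln2 (0.101). Jun lay nearest to Sec16b, Lurap1l and Nsa2 (0.048 to 0.055). Fosl2 lay nearest to Farp1 and the ribosomal protein genes Rps20 and Rpl36a (0.050 to 0.058). Jund ran with Fam219a, Atxn7 and Zfp592 (0.013 to 0.040) and Atf3 with Stk19, Tmco1 and Chchd7 (0.036 to 0.044), which like them did not pass for LPA or for HA155 against control. The distance favours genes that change by a similar amount.

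**Figure D4:**
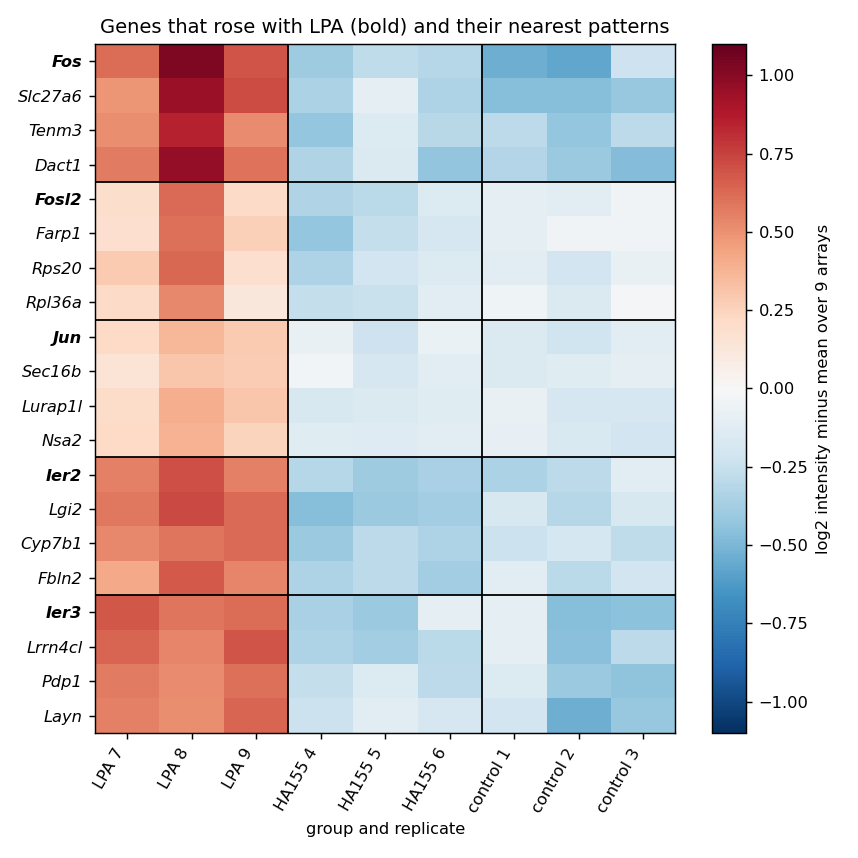
Log2 intensity minus each gene's mean over the 9 arrays (colour) for the 5 genes that rose with LPA against control (bold) and the 3 genes of nearest course below each. All 20 genes are above their mean in the 3 LPA arrays. The genes of nearest course were chosen for likeness to the 5, so that likeness is no separate result. The Fos, Fosl2 and Jun blocks are darkest in LPA array 8, as are Ier2, Lgi2 and Fbln2.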

How the data were processed

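Total RNA of 9 cultures was labelled with biotin and read on Affymetrix arrays, 1 culture to an array, per the labels' protocols. The authors deposited 1 table of intensity values. The submitters' processing notes name RMA without a version, and the range of the values shows a linear scale. RMA equalises the distributions of arrays and compresses changes of dim probes. Array medians ran from 70.7 to 72.8. Precision is set by 3 arrays a group.

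The log2 of each intensity was taken without an offset. The platform annotation gave 1 symbol to 21706 of the 35432 probe sets and several to 1605, and left 12121 unlisted. The brightest single-symbol probe set stood for each gene. A gene was tested if its mean over the 9 arrays reached the 40th percentile of probe sets, a log2 intensity of 5.59. Groups were compared with limma 3.58.1 in R 4.3.3 on all 9 arrays (two-sided, Benjamini-Hochberg over 13335 genes, threshold 0.05), without a covariate, since no batch is labelled. Treatment and any unlabelled batch running with it cannot be told apart. The procedure was run on simulated data with independent normal noise of equal spread in the 3 groups. That run does not cover the unequal spread, array differences and shared values of the real arrays. An exact test of 1 gene with 3 arrays against 3 cannot go below p = 0.1.

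The members, gene lists, tests and alternatives were chosen with earlier results of these data known. Genes named were the 10 members, the 4 of smallest p per list with LPA and with HA155 (all of a list of up to 7 genes), and the 3 of nearest course for each member called in any comparison. Outside this rule, Dusp4, Dusp6, Rhob, Btg1, Met, Vegfa and Tef were named after their values were seen, to complete small counts of genes that fell. Marker genes and genes below the filter were named to complete their lists. The design text gives 3 cultures per condition. The p-values and intervals rest on a spread between cultures that is pooled over the 3 groups and moderated across genes. Those for HA155 against control therefore also carry the spread of the LPA arrays.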

Additional observations from a re-analysis of the deposited data

How the results depend on the processing

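Each result was recomputed in 18 alternative fits: 9 that left out 1 array each, and 9 with another filter, normalization, offset, probe set rule, prior, set of arrays or array weights. Lists and named list genes were added to these fits after the data were seen. For LPA against control, Fos, Fosl2, Jun, Ier2 and Ier3 rose in every fit that tested them. The filter at the 60th percentile left 3 members that rose, since it removed Fos, Fosb, Fosl1, Atf3 and Ier3 from testing. Fosl2 had the highest adjusted p of the 5 over all fits (0.0477). With 1 array left out, 5 members rose in each fit and 0 to 1 fell. For HA155 against control no member passed in any fit, while the number of genes called was 86 with no filter, 338 with array weights and 39 to 232 with 1 array left out, against 138; the cause was not tested. For LPA against HA155 the number of members that fell was 0 under the higher filter, in the fit of only the 6 arrays compared and with array weights, and 0 to 1 with 1 array left out. Some differences near 0 changed sign without passing. Junb with HA155 was 0.0071 with median-centred arrays and -0.12 to 0.053 with 1 array left out. Fosb with HA155 was -0.033 with array weights and -0.097 to 0.14 with 1 left out, and Ier3 with HA155 ran from -0.040 to 0.17. Fosb ran from -0.012 to 0.20 for LPA against control and from -0.020 to 0.17 for LPA against HA155, where Fosl1 ran from -0.013 to 0.078. Of 35 list genes and nearest-course genes named by rule and called for LPA against control, 30 kept their call in every fit. The rule took them by small p in this same comparison or by a course near a member's. Kept calls were therefore partly set by that choice. The 7 named after their values were seen are followed by their lists' counts alone. No paired analysis was possible because each subject number occurs in 1 group.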
